A study of Mus musculus with 11 samples.

Results

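Cxcl9 and Cxcl10 are chemokines that bind the receptor CXCR3, and they were followed here in the spleens of 11 female mice. Both were chosen as the 2 ligands of CXCR3 among the 93 genes of a custom NanoString nCounter panel. The receptor itself and the third ligand, Cxcl11, were not analysed here. The study asked whether the DNA sensor cGAS drives or restrains systemic autoimmunity, and its spleen panel compared cGAS-deficient with cGAS-sufficient mice. All 11 samples were labelled as spleen, and per the paper the RNA, of which 50 ng was hybridized, came from total splenocytes.

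WT/Fas lpr mice (n = 3) and cGAS KO/Fas lpr mice (n = 4) were of the lupus-prone MRL strain, in which a defect of the death receptor Fas leads to lymphoproliferation and autoimmunity. Per the methods of the study, cGAS was deleted in this strain directly by CRISPR/Cas9 editing. The sample labels give only MRL for the strain and cGAS for the knockout, so that the Fas lpr and knockout genotypes were taken from the methods. The C57BL/6 (B6) mice were 1 uninjected WT mouse, 1 uninjected cGAS KO mouse, whose line came from embryos of a public mutagenesis program, and 2 WT mice injected with DMXAA, an agonist of mouse STING. Strain, Fas genotype and any disease differ together between the Fas lpr and the B6 mice, and their parts cannot be told apart. The dose, vehicle and timing of DMXAA are not given in the sources used here. Ages are stated for other assays of Fas lpr and B6 mice, but not for the panel samples. The cGAS transcript was not on the panel, so the knockouts were not checked against the data. Of the marker genes listed for T, NK, B, myeloid, dendritic and stromal cells, only prdm1 was on the panel, and the cell make-up of the spleens was therefore not examined.

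Both chemokines attract activated T cells and NK cells into inflamed tissue. Cxcl9 is induced mainly by interferon-γ, whereas Cxcl10 is also induced by type I interferon and by NF-κB downstream of TNF, TLRs and STING. The ratio of the 2 transcripts can therefore differ between kinds of inflammation, and in the spleen both are made largely by myeloid and stromal cells, the latter of which a preparation of splenocytes may hold few of.

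The deposited signal of each mouse was a whole number multiplied by 1 factor, so counts were read back from the values. Their unit could not be verified on a panel of 93 genes, and the counting intervals and errors given below take it as 1 count. Summed over the panel, WT/Fas lpr spleens gave 28406, 50223 and 58404 counts, and cGAS KO/Fas lpr spleens 41885, 57548, 43164 and 47134. The sum was only 3612 for B6 WT and 12386 for B6 cGAS KO, but 647148 and 600677 after DMXAA. The DMXAA-injected mice thus stood apart by their high counts and the uninjected B6 mice by their low counts, with 46 (WT) and 26 (cGAS KO) of 93 genes under 20 counts, against 10 to 16 elsewhere. The factor was smallest where the counts were lowest, namely 0.0823 for B6 WT and 0.297 for B6 cGAS KO, against 0.670 to 1.36 for Fas lpr mice and 1.61 and 1.64 after DMXAA. Levels are therefore given relative to the median gene of the same mouse, on the log2 scale, and as the ratio of cxcl9 to cxcl10, neither of which depends on the factor. The median gene itself had only 21 counts in B6 WT and 36 in B6 cGAS KO, not shown to be above background, against 106 or more elsewhere. As each gene has its own probe and probes differ in efficiency, the ratio is compared between mice only. In bulk RNA of spleen or splenocytes, fewer cells that make a transcript and less RNA per cell cannot be told apart.

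WT/Fas lpr spleens held 1236, 2187 and 2617 counts of cxcl9, which placed it 3.54, 3.65 and 3.66 log2 units above the panel median. For cGAS KO/Fas lpr spleens the counts were 2598, 2717, 1861 and 2615, at 4.10, 3.75, 3.61 and 3.97 log2 units. Cxcl9 was among the 9 most counted genes in each of these 7 spleens. B6 WT gave 16 counts (95% Poisson interval 9.15 to 26.0), at -0.39 log2 units, and B6 cGAS KO gave 33 (22.7 to 46.3), at -0.13. DMXAA-injected mice gave 2026 and 1647 counts, at 1.57 and 1.44 log2 units. Cxcl9 was thus high in all 7 Fas lpr spleens, intermediate after DMXAA and near the median gene in both uninjected B6 spleens, and these 3 sets of mice did not overlap on this scale. The group means ran from cGAS KO/Fas lpr (3.86 ± 0.22, SD, n = 4) through WT/Fas lpr (3.62 ± 0.07, n = 3) and DMXAA-injected B6 WT (1.51 ± 0.09, n = 2) to the single B6 cGAS KO and B6 WT mice. In this order the 2 Fas lpr groups overlapped and were not called different by limma, and the counting intervals of the 2 uninjected B6 mice overlapped.

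WT/Fas lpr spleens held 337, 529 and 676 counts of cxcl10, at 1.67, 1.60 and 1.71 log2 units above the panel median. With cGAS deleted on this background the counts were 666, 680, 534 and 757, at 2.13, 1.75, 1.81 and 2.18 log2 units. Cxcl10 was at rank 16 to 25 of 93 in the Fas lpr spleens. The B6 WT mouse had 16 counts (9.15 to 26.0), at -0.39 log2 units, whereas the B6 cGAS KO mouse had 112 (92.2 to 135), at 1.64. After DMXAA, cxcl10 was counted 78085 and 76417 times, at 6.84 and 6.98 log2 units, and was the gene at rank 2 of 93 in both spleens, with 12.1% and 12.7% of all counts of the panel. The DMXAA-injected mice were therefore far above all others, and the B6 WT mouse was below all others, while the B6 cGAS KO mouse lay within the range of the WT/Fas lpr mice. The group means ran from DMXAA-injected B6 WT (6.91 ± 0.10, SD, n = 2) through cGAS KO/Fas lpr (1.97 ± 0.22, n = 4) and WT/Fas lpr (1.66 ± 0.05, n = 3) to B6 cGAS KO and B6 WT. Of these neighbors, the 2 Fas lpr groups were not called different by limma, and B6 cGAS KO did not differ from WT/Fas lpr beyond the spread of the latter.

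**Figure D1:**
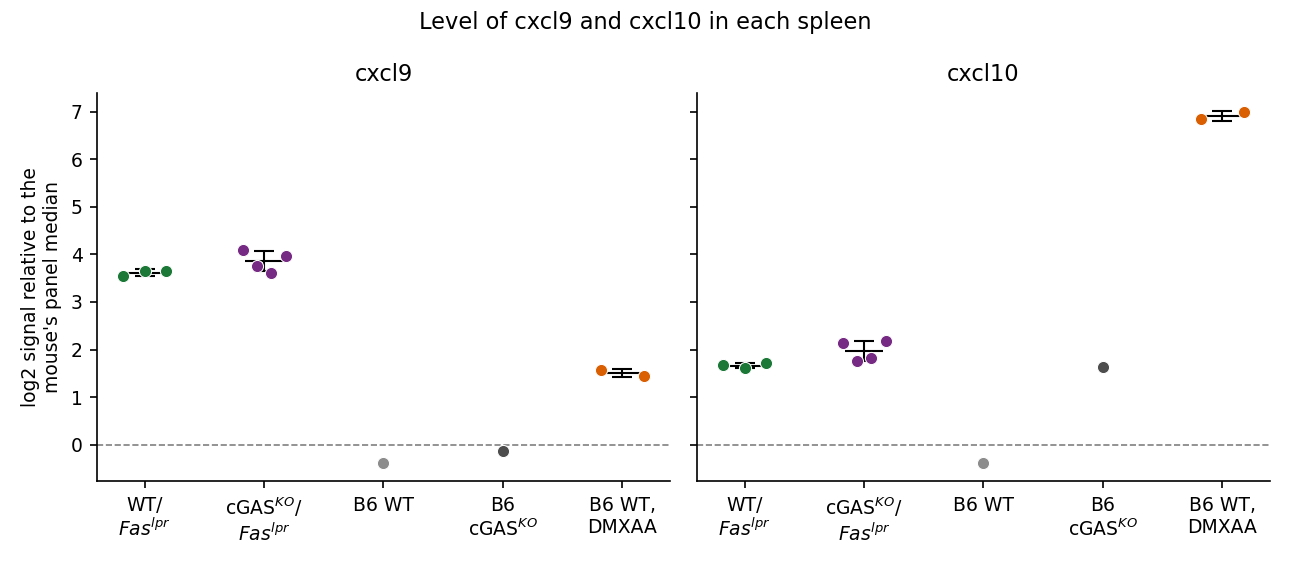
Log2 signal of cxcl9 and of cxcl10 relative to the panel median of the same mouse, for each of the 11 spleens by group. Points are mice, horizontal bars and whiskers are the mean and SD of groups with more than 1 mouse, and the dashed line is the panel median. Cxcl9 is highest in the Fas lpr mice (3.54 to 4.10), and cxcl10 in the DMXAA-injected mice (6.84 and 6.98).

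Cxcl9 counts divided by cxcl10 counts gave 3.67, 4.13 and 3.87 for WT/Fas lpr mice. For cGAS KO/Fas lpr mice the ratio was 3.90, 4.00, 3.49 and 3.45, so that the 7 Fas lpr spleens spanned only 3.45 to 4.13. The B6 WT mouse, with 16 counts of each, had a ratio of 1 with a wide 95% interval (0.468 to 2.14), and the B6 cGAS KO mouse one of 0.295 (0.194 to 0.438). In the DMXAA-injected mice the ratio was 0.0259 (0.0248 to 0.0271) and 0.0216 (0.0205 to 0.0226), or 38.5 and 46.4 cxcl10 counts for each cxcl9 count. The ratio was thus higher in every Fas lpr spleen than in any B6 spleen, and lowest in both DMXAA-injected spleens. The intervals of the Fas lpr mice, of each uninjected B6 mouse and of the DMXAA-injected mice did not overlap one another. These intervals are exact Clopper-Pearson intervals and cover counting error only.

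**Figure D2:**
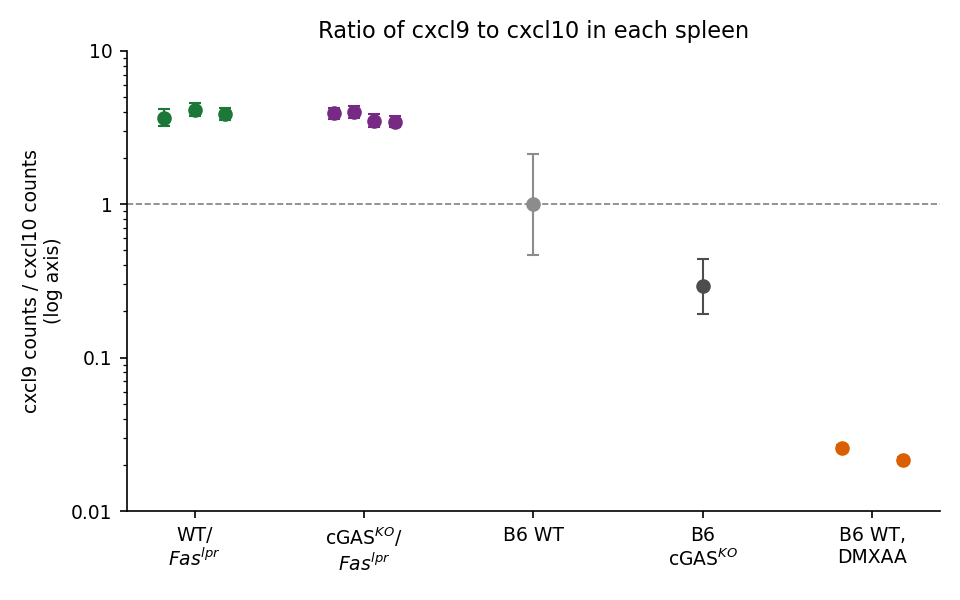
Ratio of cxcl9 counts to cxcl10 counts in each of the 11 spleens by group, on a log axis, with exact 95% counting intervals. The dashed line is a ratio of 1, drawn as a guide only, since probes differ in efficiency. Above it lie the 7 Fas lpr mice (3.45 to 4.13) and far below it the 2 DMXAA-injected mice (0.0216 and 0.0259).

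The first comparison asked whether loss of cGAS changed the chemokines in Fas lpr mice. Both remained abundant without cGAS, with ranges that lay close to those of the mice with cGAS. Relative to the panel median, cxcl9 differed by 0.24 log2 units (SE 0.146, adjusted p = 0.997 with limma and Benjamini-Hochberg adjustment over 93 genes) and cxcl10 by 0.31 (SE 0.146, adjusted p = 0.997), both with the higher mean in cGAS KO/Fas lpr mice. Neither gene was called at an adjusted p of 0.05, and 0% of the panel was. With limma 1 gene of 93, viperin, had an unadjusted p under 0.05, and voom on the counts also called 0 genes. Cxcl10 was higher in each of the 4 cGAS KO/Fas lpr mice than in each of the 3 WT/Fas lpr mice (12 of 12 pairs, exact permutation p = 0.0571, the smallest that the 35 divisions of these mice allow). It was the only gene of the panel to stand wholly above, which makes 1.08% of the 93 genes, and 3 genes stood wholly below. The cxcl10 values of the 2 genotypes overlapped when the signal was taken as deposited, as a share of the summed panel or relative to the 75th percentile of the panel. Relative to the panel mean they stayed apart (lowest without cGAS 1.816, highest with cGAS 1.767). Cxcl9 was higher in 10 of 12 pairs (exact permutation p = 0.171). The log2 ratio of cxcl9 to cxcl10 was 1.96 ± 0.09 (SD, n = 3) with and 1.89 ± 0.11 (n = 4) without cGAS, a difference of -0.07 that did not exceed the spread (exact two-sided permutation p = 0.4, and 0.4 after adjustment over the 3 ratio tests).

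The 2 chemokines moved together among the Fas lpr spleens. The signal as deposited varied between mice of the same genotype with an SD of 0.79 log2 units for cxcl9 and 0.73 for cxcl10, and the panel median itself varied with an SD of 0.72. Relative to the panel median the SD was 0.17 for either gene, and that of their log2 ratio was 0.10. The median gene varied with an SD of 0.24 around the panel median. For cxcl10, cxcl9 was the partner with the steadiest ratio of all 92 other genes. For cxcl9, only mda5, a cytosolic RNA sensor, gave a steadier ratio (SD 0.08) than cxcl10. The root mean square difference between the profiles of cxcl9 and cxcl10 over these 7 mice was 0.0917 log2 units, and each was the nearest gene to the other, against a median of 0.295 and 0.317 over the other genes. Among the next nearest were tnfa, Ifi47 and nlrc5 for cxcl9, and tnfa, Ifi47 and Il1ra for cxcl10. These distances are descriptions over 7 mice that share the centring, and were not tested.

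The Fas lpr mice were then compared with the uninjected B6 mice. On the scale of the panel median, cxcl9 lay above both B6 mice in every Fas lpr spleen, whereas cxcl10 lay clearly above the B6 WT mouse only. As a share of all counts, cxcl10 was 0.904% in the B6 cGAS KO mouse and 1.05% to 1.61% in the Fas lpr mice. Relative to the panel median cxcl9 was higher in 14 of 14 pairs of mice, and its mean was also higher in the other scalings. The mean of cxcl10 relative to the panel median was higher by 1.19 log2 units, with 13 of 14 pairs. With limma, 28% of the panel was called higher, cxcl10 among it, while 39.8% of it was called lower. The median difference over all genes was -0.08, or 5.19 on the signal as deposited. The call of cxcl10 rested on the B6 WT mouse, as without it the difference was 0.18, and 2.21 without the B6 cGAS KO mouse. The B6 WT mouse had 16 counts of cxcl10, not shown to be above background. Their counting error of 0.36 log2 units exceeds the fitted SE of 0.144, so the call of cxcl10 is not relied on. For cxcl9 the controls had 16 and 33 counts, not shown to be above background. Their counting errors of 0.36 and 0.25 log2 units exceed the fitted SE of 0.143, so no difference, p or call is given for cxcl9. Cxcl10 differed by 0.73 relative to the 75th percentile and by 6.46 on the signal as deposited. Cxcl9 was higher in the Fas lpr mice whichever mouse was left out. The log2 ratio of cxcl9 to cxcl10 was 1.92 ± 0.10 (SD, n = 7) in Fas lpr mice and 0 and -1.76 in the B6 WT and the B6 cGAS KO mouse. This mean difference of 2.80 moved to 3.68 without the B6 WT and to 1.92 without the B6 cGAS KO mouse. Its exact two-sided permutation p of 0.0556 was the smallest that 36 divisions allow (0.0833 after adjustment over 3 ratio tests). Both B6 ratios rest on the cxcl9 counts of 16 and 33, and that of the B6 WT mouse also on 16 counts of cxcl10. As these were not shown to be above background, the size of the difference and its p are not relied on.

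DMXAA-injected B6 WT mice were compared with the 1 uninjected B6 WT mouse. Cxcl10 was higher after STING activation in every scaling, and cxcl9 in most. The injected mice had 78085 and 76417 counts of cxcl10 and 2026 and 1647 of cxcl9, against 16 of each in the control. With the B6 cGAS KO mouse as control (112 counts of cxcl10), cxcl10 differed by 5.27 log2 units relative to the panel median. Of the panel, limma called 37.6% higher and 49.5% lower, with the variance of the other groups lent to the single control, and the median difference over all genes was -0.89, or 8.35 on the signal as deposited. As a share of the summed panel the direction of cxcl9 turned, so that it was lower after DMXAA. The control was a single mouse with 16 counts for either gene, not shown to be above background, and their counting error alone (0.36 log2 units) exceeded the fitted SE of 0.219. No fold, p or call is therefore given for either gene or for their ratio in this comparison, whose log2 ratio was -5.40 in the injected mice.

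DMXAA-injected B6 and Fas lpr mice, both with replicates, separated the 2 chemokines most. Every Fas lpr spleen was rich in cxcl9, and both DMXAA-injected spleens were rich in cxcl10. Cxcl10 was 34.2-fold higher after DMXAA (5.10 log2 units, SE 0.144, limma adjusted p = 8.33e-10, 14 of 14 pairs of mice), with 3.30 as a share of the summed panel and 7.75 on the signal as deposited. Cxcl9 was lower after DMXAA, with a difference of -2.23 log2 units relative to the panel median (SE 0.143, limma adjusted p = 2.59e-07, in 14 of 14 pairs), but not on the signal as deposited, where the difference was 0.42 (adjusted p = 0.558), and it was -4.02 as a share of the summed panel. One of the genes was thus called higher, beside 33.3% of the panel, and the other lower, beside 54.8%. The median difference over all genes was -0.81 relative to the panel median and 1.84 on the signal as deposited. The log2 ratio, which no scaling of the mice can move, was -5.40 ± 0.19 (SD, n = 2) after DMXAA and 1.92 ± 0.10 (n = 7) in Fas lpr mice. This difference of -7.32, or 160-fold, separated all 14 pairs of mice, by -7.58 to -7.06, and its exact two-sided permutation p of 0.0556 was the smallest that 36 divisions allow (0.0833 after adjustment over 3 ratio tests). The comparisons with Fas lpr, DMXAA-injected and uninjected B6 mice share samples, and their values stand side by side without a test between them.

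The last comparison asked whether the difference between cGAS KO and WT mice was the same on the B6 as on the Fas lpr background. The B6 background had 1 mouse of each genotype, and thus no spread between mice. There, the single cGAS KO mouse was above the single WT mouse by 0.27 log2 units for cxcl9 and by 2.03 for cxcl10. The corresponding differences were 0.24 and 0.31 on the Fas lpr background. For cxcl10 the difference between backgrounds was -1.72, and with limma 28% of the panel was called in this direction and 5.38% in the other, with a median over all genes of -0.26. For cxcl9 it was -0.03 (limma adjusted p = 0.944), but it ran from -2.58 on the signal as deposited (adjusted p = 0.0565) to 0.96 as a share of the summed panel, where it was called (adjusted p = 0.0325). With limma, the cxcl10 call was lost as a share of the summed panel (-0.73, adjusted p = 0.0701), relative to the 75th percentile (-0.98, adjusted p = 0.0947) and in 3 other settings, with adjusted p up to 0.216. On the signal as deposited it was -4.27. The B6 side borrows its variance from the replicated groups, and the counting error of the 16 counts of the B6 WT mouse (0.36) exceeds the fitted SE of 0.288, so the call is not relied on. The log2 ratio differed between cGAS KO and WT by -1.76 on the B6 and by -0.07 on the Fas lpr background.

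Over all 11 mice the 2 chemokines had different neighbors. The gene nearest to cxcl9 was Ifi47, an interferon-γ-inducible GTPase, at a root mean square difference of 0.680 log2 units. Close to it were tgfb1 (1.01), cxcl6 (1.08, a name that RefSeq lists for Cxcl5) and adar (1.14), against a median of 1.92 over the other 92 genes. The genes nearest to cxcl10 were Ifit2 (0.519) and viperin (0.564), both induced by type I interferon, and tnfa (0.752), followed by Ifi204 (1.07) and socs1 (1.15, a feedback inhibitor of interferon signaling), against a median of 2.44. Cxcl9 and cxcl10 lay 2.82 apart, and cxcl10 was at rank 83 of the 92 neighbors of cxcl9. In turn, cxcl9 was at rank 59 among the neighbors of cxcl10. These distances are descriptions and were not tested. They include the uninjected B6 mice, where cxcl9 (16 and 33 counts) and cxcl6 (10 and 9) were not shown to be above background. They also include the DMXAA-injected mice, in which cxcl10, Ifit2, viperin and tnfa were all far above the other mice.

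**Figure D3:**
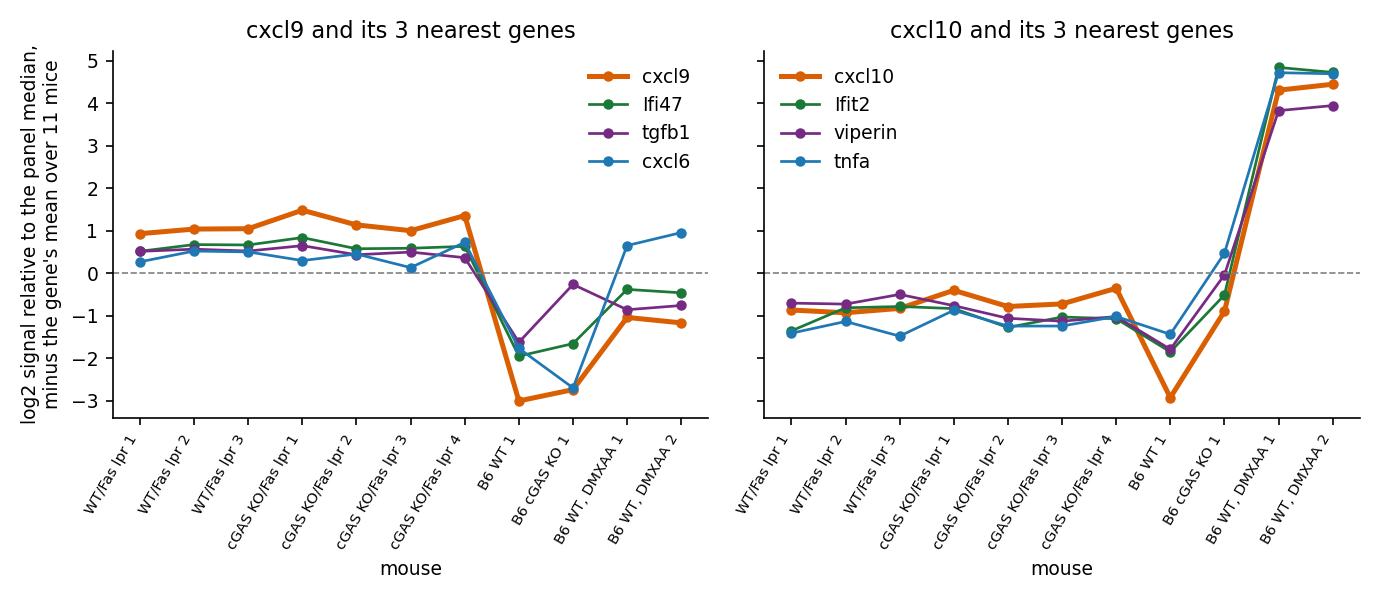
Log2 signal relative to the panel median, minus the mean of each gene over the 11 mice, for cxcl9 (left) and cxcl10 (right), each with the 3 genes nearest to it. Each point is 1 spleen, and lines join the points of a gene. Cxcl9 is highest in the 7 Fas lpr mice, whereas cxcl10, Ifit2, viperin and tnfa are highest in the 2 DMXAA-injected mice.

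The known inducers of the chemokines are given as counts, which do not allow for the different totals of the mice. Ifnb1, the gene of interferon-β, was counted 9 to 19 times in the Fas lpr mice, 17 (WT) and 23 (cGAS KO) times in the uninjected B6 mice, and 47509 and 38759 times after DMXAA. Ifna4, a type I interferon of the α family, was counted 3 to 11 times in the Fas lpr mice, 14 and 11 times in the uninjected B6 mice, and 4528 and 4108 times after DMXAA. Both type I interferon genes were thus abundant in the DMXAA-injected mice and at most 23 counts elsewhere. Ifng, the gene of interferon-γ, was counted 21, 59 and 56 times in WT/Fas lpr spleens, 71, 52, 39 and 44 times in cGAS KO/Fas lpr spleens, and 12 and 19 times in the uninjected B6 mice. After DMXAA it was counted 17 and 29 times. Relative to the panel median Ifng was highest in the uninjected B6 mice (-0.81 and -0.92 log2 units), at -2.34 to -1.10 in the Fas lpr mice and lowest after DMXAA (-5.32 and -4.38), which is not the order of the counts. As the median gene had only 21 and 36 counts in the uninjected B6 mice, this order is not read as one of expression. Tnfa, the gene of the NF-κB-activating cytokine TNF, was counted 72 to 154 times in the Fas lpr mice, 14 (WT) and 90 (cGAS KO) times in the uninjected B6 mice, and 32362 and 28257 times after DMXAA. Ifng was therefore below the panel median in every spleen, while tnfa, like cxcl10, was highest after DMXAA and higher in the B6 cGAS KO than in the B6 WT mouse. The level of background counts is not known, so the lowest of these counts were not read as expression.

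Compared with the Fas lpr mice, tnfa was higher after DMXAA by 5.92 log2 units relative to the panel median (limma adjusted p = 3.69e-10). For Ifnb1 and Ifna4, whose counts in Fas lpr mice were not read as expression, no difference is given. Nor is one given for Ifng, whose 17 and 29 counts after DMXAA were not shown to be above background. Against the uninjected B6 mice, the Fas lpr mice were higher in Ifi47 by 2.44 and in Irf1, a transcription factor induced by interferons, by 0.99 log2 units, both called.

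Genes of the same pathways were then counted by list, without a test of any list. Of the whole panel, 28% was called higher and 39.8% lower in Fas lpr than in uninjected B6 mice. Of 4 panel genes known to respond mainly to interferon-γ, 3 were called higher and 1 lower in this comparison, with a median of 1.03 log2 units against -0.08 over all 93 genes. Among them nlrc5 was at 0.65 log2 units in the B6 WT but at 2.69 in the B6 cGAS KO mouse, against a mean of 2.75 in Fas lpr mice. Of 14 genes known to respond to type I interferon, 5 were called higher and 3 lower in the same comparison, with a median of 0.13. Relative to the 75th percentile 2 of the 14 were called higher and 5 lower, and as a share of the summed panel 4 and 4. In that list the Fas lpr means of aim2 (2.39) and samhd1 (2.75) lay above the B6 WT mouse only (0.82 and 1.34). The B6 cGAS KO mouse was at 2.64 and 3.005. Of 6 genes of interferon signal transduction 3 were called higher and 2 lower, with a median of 0.51. Of 8 inducers 0 were called higher and 7 lower, but several of them were not read as expression. Of the other CXC chemokines 1 of 3 was called higher and 1 lower, and of the CC chemokines and receptors 1 of 4 was called higher and 1 lower. Other list members also had low counts in the B6 WT and the B6 cGAS KO mouse, not shown to be above background. They include cxcl1 (6 and 10), cxcl2 (6 and 14), cxcl6 (10 and 9), Ifi204 (11 and 5), Ifit1 (11 and 15) and nos2 (21 and 13). Calls of these genes are not relied on. On the signal as deposited every gene of these lists was called higher, as was the whole panel.

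Between DMXAA-injected and Fas lpr mice, where 33.3% of the panel was called higher and 54.8% lower, 9 of the 14 type I interferon genes were called higher and 4 lower, with a median of 1.51 log2 units against -0.81 over all genes. As a share of the summed panel 4 of the 14 were called higher and 6 lower, and on the signal as deposited 13 higher and 0 lower. In this list Ifit1 was highest (8.40) and aim2, a cytosolic DNA sensor, lowest (-1.58). Of the 4 interferon-γ genes, 1 was called higher (Irf1, 1.10, but -0.69 as a share of the summed panel) and 3 lower, with a median of -1.14 and nlrc5, an activator of MHC class I genes, lowest (-1.93). In the same 2 scalings 0 of the 4 were called higher and 4 lower, and 3 higher and 0 lower. Ifi47, the nearest neighbor of cxcl9, was at -1.06, and Ifit2 and viperin, the nearest of cxcl10, were at 5.80 and 4.70. The directions of aim2, nlrc5 and Ifi47 turned on the signal as deposited. Of the 6 signal transduction genes 4 were called higher and 2 lower, but 1 and 4 as a share of the summed panel and 4 and 0 on the signal as deposited. Other CXC chemokines were called higher in 2 of 3 cases, from 0.39 for cxcl6 (-1.40 as a share of the summed panel) to 5.51 for cxcl2, a neutrophil attractant, and CC chemokines and receptors were called higher in 2 and lower in 2 of 4 cases, from -3.18 for ccr1 to 8.26 for ccl4. On the signal as deposited 0 of either were called lower.

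When cGAS was deleted on the Fas lpr background, 0 genes of these lists were called with limma, and the medians ran from -0.07 for the type I interferon genes to 0.11 for the interferon-γ genes, against -0.01 over all genes. List counts are not given for the comparisons that rest on a single B6 mouse. Prdm1, a regulator of plasma cells and the 1 cell type marker on the panel, differed by -0.96 log2 units between Fas lpr and uninjected B6 mice and by -2.75 between DMXAA-injected and Fas lpr mice, but by 4.31 and -0.10 on the signal as deposited, and 1 gene does not give the cell make-up.

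The genes of the 2 chemokines lie close to each other on mouse chromosome 5. By the RefSeq table for GRCm38.p6, 1 other gene, Art3, starts between Cxcl9 and Cxcl10, and Cxcl11 starts next after Cxcl10. As the 2 transcripts kept a steady ratio in the Fas lpr mice and a very different one after DMXAA, the stretch around the start of each gene is printed, 250 bases before to 50 after, as held for both genes in the RefSeq table of that build. The Cxcl9 stretch is chr5:92328030-92328329 and the Cxcl10 stretch chr5:92348840-92349139, both on the minus strand and written 5′ to 3′, with capitals for the motifs found.
Cxcl9: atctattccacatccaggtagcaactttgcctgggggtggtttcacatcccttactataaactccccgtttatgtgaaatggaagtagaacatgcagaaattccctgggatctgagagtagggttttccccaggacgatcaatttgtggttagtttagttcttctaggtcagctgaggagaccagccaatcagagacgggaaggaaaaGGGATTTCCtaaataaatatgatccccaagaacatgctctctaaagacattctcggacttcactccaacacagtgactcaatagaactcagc
Cxcl10: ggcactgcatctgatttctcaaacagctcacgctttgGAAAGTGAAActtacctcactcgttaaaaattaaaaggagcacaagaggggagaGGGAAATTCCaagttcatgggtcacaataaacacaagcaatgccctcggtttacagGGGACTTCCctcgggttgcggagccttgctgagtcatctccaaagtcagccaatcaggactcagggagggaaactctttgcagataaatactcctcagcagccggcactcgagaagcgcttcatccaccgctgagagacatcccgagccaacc
The motifs searched on both strands were TTCNNNGAA, a site of interferon-γ responses, a core of the interferon-stimulated response element (GAAA, any 2 bases, GAAA), and a κB motif of NF-κB (GGGA, any 2 bases, TTCC). Of 32851 promoters of 300 bases in the table, 8.30% held the first, 3.44% the second and 1.47% the κB motif. A κB motif that is 1 base shorter (GGGA, any base, TTCC) was added after the sequences had been seen, and 1.68% of promoters held it. The Cxcl10 stretch held the response element core once (GAAAGTGAAA, at -213 to -204 from the gene start), the longer κB motif once (GGGAAATTCC, at -159 to -150) and the shorter once (GGGACTTCC, at -103 to -95). The Cxcl9 stretch held 0 of the 3 motifs first searched and the shorter κB motif once (GGGATTTCC, at -42 to -34). None of the matches overlapped another, and neither stretch held TTCNNNGAA. A match describes the letters of the sequence and is not evidence of binding, and motifs outside these windows were not searched.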

How the data were processed

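The signal values were used as deposited, where the authors had normalized the counts of each sample to housekeeping genes. Division by the largest step that fitted each sample returned whole counts within 0.0001 for 1023 of 1023 values. The main analysis took log2 of the signal (pseudocount 0), centred each mouse on its panel median and used limma 3.58.1 (R 4.3.3), with Benjamini-Hochberg adjustment over 93 genes at 0.05. Ratios were tested by exact two-sided permutation of means (Python 3.11.15, SciPy 1.17.1), and plots used Matplotlib 3.10.9. Alternatives were no centring, centring on the 75th percentile, the mean or the summed panel, pseudocounts of 1 and 10, a floor of 20 counts, leaving out genes with low signal, trended and robust variance, leaving out each mouse, and other control groups. Voom, centring over well-counted genes and the B6 cGAS KO mouse as control were added after the data had been seen. The 2 genes and the lists were chosen with earlier results of these data known, and genes named outside the lists were the nearest neighbors, the partner with the steadiest ratio, the cell type marker or those with an unadjusted p under 0.05.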

Additional observations from a re-analysis of the deposited data

Results flagged for a closer look

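In cGAS KO/Fas lpr mouse 3 the log2 signal of cxcl10 as deposited was 8.78, against 9.54 to 9.63 in the other 3 mice of the group. In the same mouse cxcl9 was counted 1861 times, against 2598 to 2717. Both are values at the end of a small group that passed the critical ratio of the Dixon test (0.897 and 0.861 of the range), a test that marks about 1 in 20 groups by chance. There were 14 ends tested and 2 passed. Relative to the panel median this mouse did not stand apart. The third item is cxcl10, whose difference between cGAS KO and WT mice on the Fas lpr background minus that on B6 was -1.72 log2 units. With 1 B6 mouse of each genotype, the B6 side is a difference between single animals, and the call is not relied on. The cause was not tested for any of these items.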

How the results depend on the processing

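The main limits are the 1 mouse in each uninjected B6 group, the low counts of these mice, and groups of 2 to 4 mice elsewhere. Variance in the lone B6 mice was assumed to equal that of the other groups. Leaving out the B6 WT mouse was not possible where it was the only control. The sample numbers do not pair the mice: as a block, the numbers gave 0.20 for cxcl9 and 0.24 for cxcl10 between the 2 Fas lpr genotypes. The count test first listed was not run on the recovered counts, as a panel of 93 genes has too few low values to verify their unit, and voom on these counts, chosen after seeing the data, took its place. The cause of changes between settings was not tested.

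Direction turned for cxcl9 in DMXAA-injected against uninjected B6 WT mice as a share of the summed panel (-0.60), and in DMXAA-injected against Fas lpr mice without centring (0.42). The next values are for the difference between cGAS KO and WT mice on Fas lpr minus that on B6, with 1 B6 mouse of each genotype. Cxcl9 changed from -0.03 to -2.58 (no centring), 0.72 (75th percentile), 0.26 (mean) and 0.96 (summed panel). It was 0.12 and 0.27 (pseudocounts 1 and 10), 0.29 (floor of 20 counts) and 0.15 (low genes left out). With voom it was 0.55 and with well-counted genes 0.72, and it ranged from -0.11 to 0.0526 with 1 mouse left out. For cxcl10 this difference weakened to -0.98 (75th percentile), -0.73 (summed panel), -0.80 (pseudocount 10), -1.13 (voom) and -0.97 (well-counted genes), and was -4.27 without centring. Cxcl10 was 3.30 (summed panel) to 7.75 (no centring) in DMXAA-injected against Fas lpr mice.

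In Fas lpr against uninjected B6 mice, cxcl10 ranged from 0.18 to 2.21 with 1 mouse left out. The log2 ratio of cxcl9 to cxcl10 moved, with 1 mouse left out, between -5.54 and -5.27 in DMXAA-injected against B6 WT mice, between 1.92 and 3.68 in Fas lpr against B6 mice, and between -7.45 and -7.19 in DMXAA-injected against Fas lpr mice. It was -4.52 against both uninjected B6 mice, -3.64 against the B6 cGAS KO mouse, and 1.96 for Fas lpr against B6 in WT mice only. With pseudocount 10 it was 1.07 for the difference between cGAS KO and WT mice on Fas lpr minus that on B6.

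Among other genes, direction turned without centring for Ifng (5.19) in DMXAA-injected against B6 WT mice, and for Ifng (4.31) and prdm1 (4.31) in Fas lpr against B6 mice. Neither Ifng value is read as a change of expression. Ifng had 12 counts in B6 WT, 19 in B6 cGAS KO and 17 and 29 after DMXAA, not shown to be above background. Without centring the values also carry the factor of each mouse, 0.0823 for B6 WT against 1.61 and 1.64 after DMXAA. Direction also turned for Ifi47 (1.59), nlrc5 (0.72) and aim2 (1.07) without centring, and for Irf1 (-0.69) and cxcl6 (-1.40) as a share of the summed panel, in DMXAA-injected against Fas lpr mice.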
